A study of Mus musculus with 9 samples.

Results

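The genes described here are 10 endothelial and angiogenic genes, Pecam1, Cdh5, Kdr, Flt1, Tek, Tie1, Eng, Vegfa, Angpt1 and Angpt2, in the mammary gland of lactating mice. Every probe whose gene name equals one of these symbols was taken, control features aside, which gave 21 of the 41174 probes on the array, and all 10 genes were found among the 27962 gene names there. Probes were matched to the genes by name alone. RNA of mammary gland number 4 from 4 WT dams and 5 hNAG-1 dams was hybridized to 1-color Agilent arrays, with 1 array for each mouse. Both genotypes were on the background that the labels spell C57BL/7 and both were sampled on lactation day 2 (L2). The WT dams carry no transgene. The hNAG-1 dams carry a transgene that drives human NAG-1, the growth factor also named GDF15, in all tissues, so that a difference between genotypes is not that of a gland-specific transgene. The study kept 2 transgenic lines, the labels do not say which line gave the arrays, and the human transcript was not checked here.

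Blood vessels of the mammary gland expand in pregnancy and lactation, when the secretory epithelium draws water, glucose and lipid precursors from the blood. Endothelial cells line these vessels, hold to each other through junction proteins such as PECAM1 and VE-cadherin (Cdh5), and take growth signals through 2 families of tyrosine kinase receptors. VEGF-A binds VEGFR2 (Kdr), the main signaling receptor, and VEGFR1 (Flt1), which binds the ligand tightly and limits what reaches VEGFR2. The angiopoietins bind TIE2 (Tek), with ANGPT1 as the activating ligand and ANGPT2 as one that often opposes it, and TIE1 is a partner receptor of TIE2. Endoglin (Eng) is a co-receptor for BMP9 and TGF-beta ligands on endothelium.

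Values are background-subtracted intensities scaled so that every array has the same 75th percentile, and a level of one probe cannot be set against that of another. Before scaling, that percentile lay between 533 and 1185. A probe is called well above background when the scanner software says so for that array, which held for 59.1% to 75.6% of all probes, with hNAG-1 2 and hNAG-1 4 the lowest at 59.7% and 59.1%. Of 3 slides, the first carried WT 1 alone, the second hNAG-1 1 to 4, and the third WT 2, WT 3, WT 4 and hNAG-1 5. Only slide 3 carried both genotypes, so a comparison with slide as a block rests on 1 hNAG-1 mouse against 3 WT mice. Of the 21 probes, 17 were well above background on all 9 arrays, at least 1 of them for each of the 10 genes, and none was saturated.

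WT 2 stood apart from the other arrays. The summed intensity of 5 lymphocyte markers was 18273 in WT 2 and between 2145 and 3668 in the other WT arrays, and it ranged from 1479 to 5193 in hNAG-1. The mean log2 value of 5 myoepithelial markers lay 0.78 below its mean over the arrays in WT 2, and that of 8 luminal epithelial markers lay 0.50 below. In WT 1 the mean of 7 adipocyte markers lay 1.19 below and that of 5 macrophage markers 1.01 below. The mean of the lymphocyte markers was lowest in hNAG-1 2 and hNAG-1 3, which differed from its mean over the arrays by -1.07 and -1.05. For markers of pericytes and vascular smooth muscle these mice differed by 0.23 and 0.55, the highest among hNAG-1 mice. The part of these mixtures in the results that follow was not tested, and a number of the values are also given without WT 1 or WT 2. In RNA of a whole gland, fewer cells of a type and less RNA per cell cannot be told apart.

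The 10 genes showed a small excess in hNAG-1 dams that had no adjusted p under 0.05 for any probe and that, in its median, turned around within the slide carrying both genotypes. The unadjusted limma p was under 0.05 for 0 of 21 probes, where 5.6% of all probes did, and 0 had an adjusted p under 0.05, where 0.00243% of all probes did. The lowest adjusted p among the 21 was 0.661. Tie1 and the Cdh5 probe A_51_P309056 passed an unadjusted 0.05 under some alternatives, at 0.0365 and 0.0264 with normexp background correction and 0.0373 and 0.0457 with median scaling. The Flt1 probe A_52_P405145 did so as a fall, with a limma p of 0.0112 with array weights and 0.00598 with replicate numbers as blocks. The dim Kdr probe A_52_P478193 rose with a limma p of 0.0160 under quantile normalization, and Vegfa A_52_P249424 passed in 1 setting. The 2 genotypes overlapped for every one of the 21 probes, while 1.35% of all probes had no overlap. The mean log2 value was higher in hNAG-1 for 19 of 21 probes and lower for 2, against 47.9% of all probes with a positive difference, and 2 of the 19 turned negative when arrays were not scaled. It was higher for 17 of the 17 probes well above background on all 9 arrays, against 51.9% of all such probes, and for 5 of the 17 with slide as a block, against 62%. The median log2 fold change of the 21 probes was 0.29, beside -0.02 over all probes and 0.01 over probes well above background on all 9 arrays.

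With slide as a block, 8 of the 21 probes were higher in hNAG-1 and 13 lower, with a median log2 fold change of -0.10, beside 0.19 over all probes, of which 68.8% were positive. Only 8 probes had the same direction in both fits. Of the 21, 1 probe then had an unadjusted p under 0.05, against 7.61% of all probes, and it was a Kdr probe that stayed at background on every array. None had an adjusted p under 0.05, against 0.335% of all probes, and the lowest was 0.508. Without WT 2 and without the block, 16 probes were higher and 5 lower, and the median fell to 0.15.

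**Figure D1:**
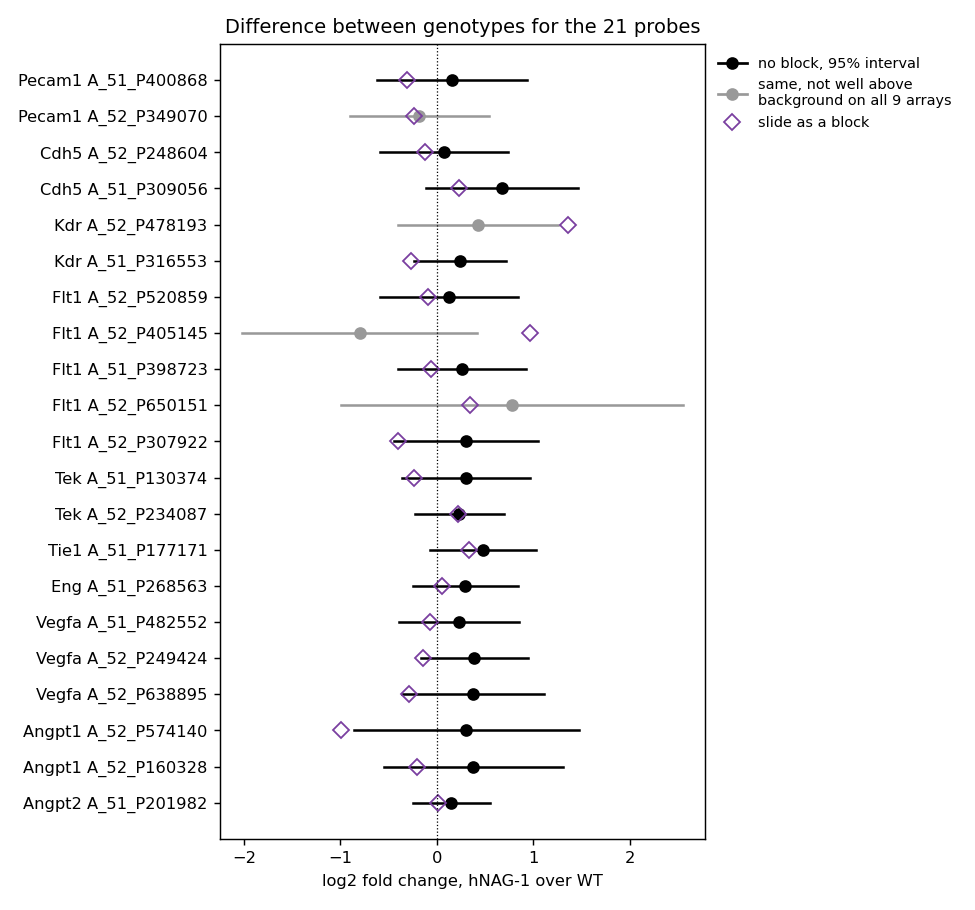
Log2 fold change of hNAG-1 over WT for each of the 21 probes (horizontal axis), with circles and lines for the limma estimate and its 95% interval without a block and open diamonds for the estimate with slide as a block. All 21 intervals include 0, 19 of 21 circles lie above 0, and 13 of 21 diamonds lie below it.

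The highest values were mostly those of hNAG-1 2 and hNAG-1 3, but the excess did not rest on these mice alone. Its median over the 21 probes, 0.29, was 0.22 without hNAG-1 2, 0.19 without hNAG-1 3 and 0.15 without WT 2. For Vegfa A_51_P482552 and Angpt1 A_52_P160328 the log2 fold change rose to 0.30 and 0.46 without hNAG-1 3. Without WT 2 it was -0.01 and 0.06. Among the 17 probes well above background on all 9 arrays, the highest of the 9 arrays was hNAG-1 2 or hNAG-1 3 for 12 probes. Each of these mice exceeded every WT mouse for 11 of the 17 probes. The other mice of slide 2 did so less widely, with 4 probes for hNAG-1 1 and 5 for hNAG-1 4. On slide 3, hNAG-1 5 lay within the WT range for 14 of the 17 probes, above it for 2 and below it for 1.

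**Figure D2:**
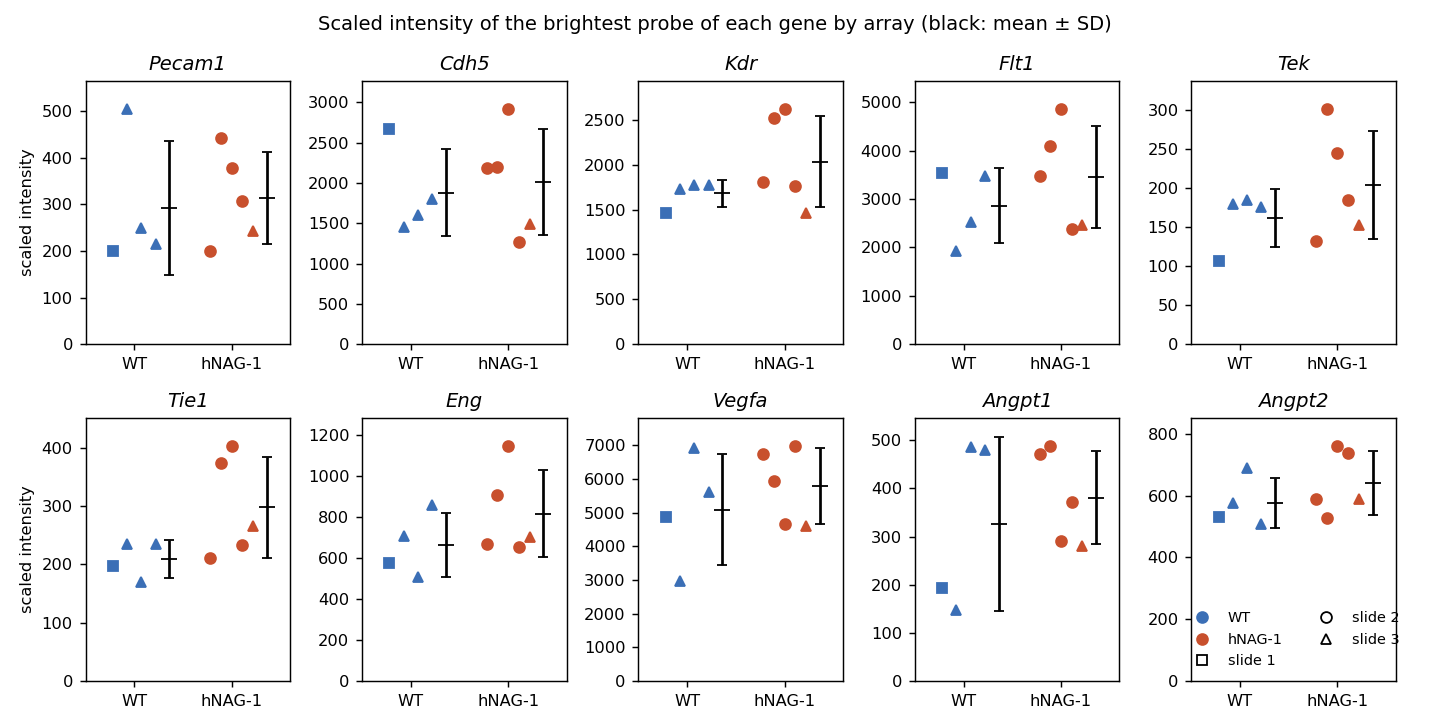
Scaled intensity (vertical axes, linear, from 0) of the brightest probe of each gene in the 4 WT and 5 hNAG-1 arrays, with marker shape for the slide and black bars for the mean ± SD of a genotype. The genotypes overlap in every panel, and the 2 highest hNAG-1 points of Kdr, Tek, Tie1 and Eng are hNAG-1 2 and hNAG-1 3.

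Of the receptors, Tie1 had the difference nearest to the threshold among probes well above background on all arrays. Its probe is shown because it is the only one for Tie1 on the array and the values below rest on its 60 bases, which lie at chr4:117847966-117848025 (mm7, minus strand) and read as follows.
Tie1 A_51_P177171: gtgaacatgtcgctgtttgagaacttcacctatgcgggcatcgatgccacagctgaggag
Tie1 read 197, 236, 169 and 234 in WT 1 to 4, and 211, 375, 403, 234 and 265 in hNAG-1 1 to 5. The hNAG-1 arrays 2, 3 and 5 lay above every WT array, and the other two lay within the WT range. Mean Tie1 intensity was 209 ± 32.1 (SD, n = 4) among WT dams, while hNAG-1 dams averaged 298 ± 86.1 (SD, n = 5), which is 0.48 ± 0.23 (SE) as a log2 fold change. The unadjusted limma p was 0.0689, the adjusted p was 0.661, and the exact two-sided permutation test over all splits of the arrays gave 0.103. Within slide 3 the difference was 0.33, so Tie1 was among the few genes whose sign was kept.

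Tek, the receptor that TIE1 partners, has 2 probes on the array that lie 132314 bases apart. The brighter one, A_51_P130374, read 106, 179, 185 and 176 in WT and 133, 301, 245, 185 and 153 in hNAG-1. Here hNAG-1 2 and 3 exceeded all WT mice, WT 1 was far below the other WT mice, and the remaining arrays overlapped. Its log2 fold change was 0.30 ± 0.28 (SE), with an unadjusted limma p of 0.313, 0.11 without WT 1, 0.14 without hNAG-1 2, and -0.24 within slide 3. The second probe, A_52_P234087, had a difference of 0.23, and 0.22 within slide 3. The probes did not follow each other over the mice, with a Pearson r of -0.24, and the second was highest in hNAG-1 1 and 3, at 90.0 and 89.8, where the first had 133 and 245.

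Kdr, the main VEGF receptor of endothelium, read 1458, 1725, 1774 and 1770 in WT and 1801, 2524, 2617, 1757 and 1462 in hNAG-1 with A_51_P316553. WT 2, 3 and 4 were closely grouped and WT 1 lay below them, hNAG-1 1, 2 and 3 lay above all WT mice, and hNAG-1 5, on the slide of WT 2 to 4, lay below those 3 and near WT 1. The log2 fold change was 0.24 ± 0.20 (SE), with an unadjusted limma p of 0.261, and -0.26 within slide 3. It was 0.14 without hNAG-1 3 and 0.15 without hNAG-1 2. This probe is printed 10 times on each array, and the median coefficient of variation among its spots was 4.09%. The spread between mice was larger than that between spots, with an SD of 0.14 in WT and 0.36 in hNAG-1 on the log2 scale against a median of 0.06 among spots. The other Kdr probe, A_52_P478193, lies 30570 bases away and read between 5.94 and 22.9. It was not well above background on any array, its spots varied by a median of 80.4%, and no fold is given.

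Flt1, the VEGF receptor that binds and retains its ligand, had 3 probes well above background on all arrays. The brightest, A_51_P398723, read 3535, 1923, 2518 and 3481 in WT and 3484, 4096, 4857, 2385 and 2462 in hNAG-1. Again hNAG-1 2 and 3 lay above every WT mouse and the other mice overlapped with WT. The log2 fold changes of A_51_P398723, A_52_P520859 and A_52_P307922 were 0.26, 0.13 and 0.30, and all 3 were below 0 within slide 3, at -0.06, -0.10 and -0.40. The lowest unadjusted limma p of the 3 was 0.366. Without WT 2 the log2 fold changes were 0.08, -0.08 and 0.15, and without hNAG-1 3 they were 0.12, -0.01 and 0.19.

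The other Flt1 probes were not well above background on all arrays and behaved differently. A_52_P405145 read 38.1, 27.9, 41.5 and 38.2 in WT and 29.6, 12.1, 11.1, 13.9 and 69.1 in hNAG-1, and was well above background on 4 WT arrays but only 2 hNAG-1 arrays. The readings of hNAG-1 2, 3 and 4 lay below the lowest intensity well above background on those arrays, which was 26.6, 20.1 and 31.7, so the difference of mean log2 values, -0.80, is taken partly against background. It was -0.38 with all values floored at 20, -0.06 with normexp background correction and 0.97 within slide 3, where hNAG-1 5 had the highest reading. In the other direction, it was -1.23 without hNAG-1 5 and -1.18 with array weights. A dim probe of Fgf2 had a like order and read 36.6, 17.0, 14.5 and 14.6 in hNAG-1 1 to 4 and 71.9 in hNAG-1 5, against 39.8 to 51.2 in WT. A_52_P650151 was at 2.89 to 5.91 on every array except hNAG-1 4, which read 55.6, the one array where it was well above background.

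**Figure D3:**
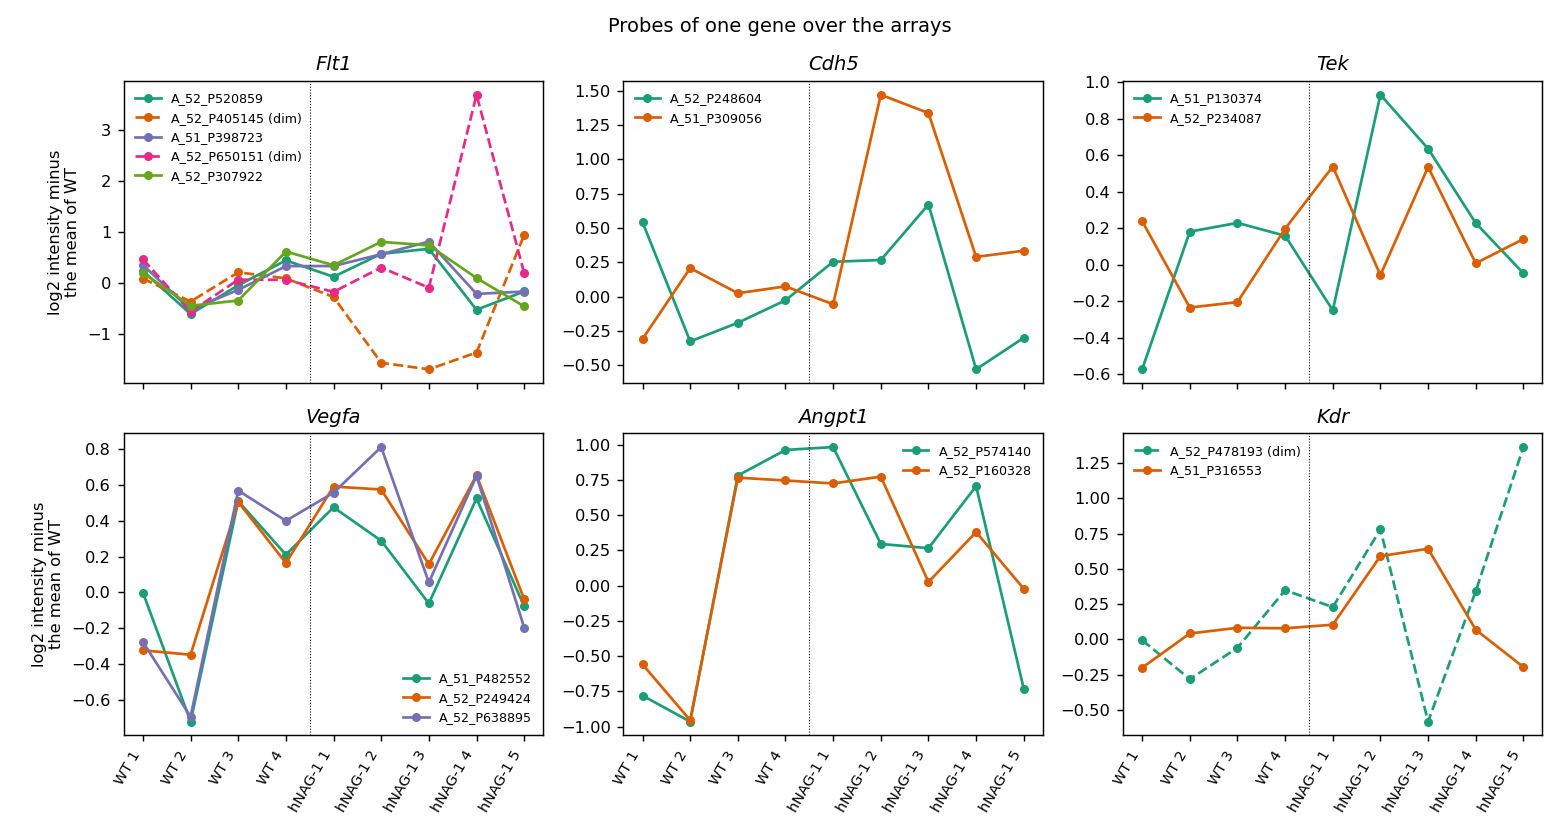
Log2 scaled intensity minus the mean of the 4 WT arrays (vertical axes) for each probe of the 6 genes shown, over the 9 arrays in order of genotype and number, with solid lines for probes well above background on all 9 arrays and dashed lines (marked dim) for the others. The solid lines of Flt1, Vegfa and Angpt1 share most of their course, with single steps that part, those of Cdh5 and Tek cross, and the dashed lines of Flt1 and Kdr leave the solid ones.

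The junction genes gave no common direction beyond the small excess. Pecam1, an adhesion molecule of endothelium that platelets and leukocytes also carry, was measured by a probe of 60 bases whose parts are mapped over 1854 bases at chr11:106790116-106791969 (mm7, minus strand). It is shown because its 60 bases do not map in 1 piece, unlike those of the second Pecam1 probe, which lie in 1 piece inside that span.
Pecam1 A_51_P400868: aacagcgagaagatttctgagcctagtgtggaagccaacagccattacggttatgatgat
It read 200, 504, 250 and 214 in WT and 200, 442, 378, 306 and 243 in hNAG-1. The highest value was that of WT 2, the array with the high lymphocyte markers, and no hNAG-1 array lay outside the WT range. The log2 fold change was 0.15 ± 0.33 (SE), with an unadjusted limma p of 0.652, and -0.30 within slide 3. It was 0.45 without WT 2, 0.0080 without WT 1, 0.015 without hNAG-1 2 and 0.040 without WT 4. The probe is printed 10 times, with a median coefficient of variation of 5.66% among spots. The second probe, A_52_P349070, was not well above background on any array.

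Cdh5, the cadherin of endothelial junctions, was measured by 2 probes 600 bases apart that differed in their pattern. A_52_P248604 read 2665, 1459, 1603 and 1796 in WT and 2182, 2201, 2914, 1268 and 1487 in hNAG-1. Its genotypes were mixed through the range, with WT 1 second highest and hNAG-1 4 lowest, and the log2 fold change was 0.07 ± 0.28 (SE), with an unadjusted limma p of 0.801, and -0.12 within slide 3. It was 0.25 without WT 1 and -0.08 without hNAG-1 3. A_51_P309056 read 106, 152, 134 and 139 in WT and 127, 365, 333, 161 and 166 in hNAG-1, so all hNAG-1 mice but number 1 exceeded the WT range. Its log2 fold change of 0.68 ± 0.33 (SE) was the largest among the 17 probes well above background on all arrays, with an unadjusted limma p of 0.0713, an exact two-sided permutation p of 0.135, and 0.23 within slide 3. The Pearson r between the 2 Cdh5 probes was 0.32 over the 9 arrays.

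Eng, the co-receptor for BMP9, read 578, 709, 507 and 860 in WT and 669, 909, 1147, 651 and 703 in hNAG-1. The mice hNAG-1 2 and 3 lay above all WT mice, and the others lay within the WT range. The log2 fold change was 0.29 ± 0.23 (SE), with an unadjusted limma p of 0.235, and 0.06 within slide 3. It was 0.16 without hNAG-1 3 and 0.17 without WT 3.

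Of the ligands, Vegfa was measured by 3 probes that followed each other. The brightest, A_51_P482552, read 4857, 2953, 6907 and 5619 in WT and 6744, 5930, 4656, 6978 and 4606 in hNAG-1. The lowest value was that of WT 2, and only hNAG-1 4 lay above the highest WT array, by little. The log2 fold changes of A_51_P482552, A_52_P249424 and A_52_P638895 were 0.23, 0.39 and 0.37 and were -0.08, -0.15 and -0.29 within slide 3. The smallest unadjusted limma p of the 3 was 0.134, for A_52_P249424, with an exact two-sided permutation p of 0.167. For A_51_P482552, printed 10 times, spots varied by a median of 3.31% while WT mice differed by up to 2.34-fold. Leaving out WT 2 brought its log2 fold change from 0.23 to -0.01 and that of A_52_P638895 from 0.37 to 0.14.

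Angpt1, the activating ligand of TIE2 made mostly by cells around the vessel, varied the most between WT mice. Its 2 probes lie 69267 bases apart on chromosome 15, at chr15:42504318-42504377 and chr15:42434991-42435050 (mm7, minus strand), share no stretch of the genome, and are shown because they report the same low WT mice from different sequence.
Angpt1 A_52_P574140: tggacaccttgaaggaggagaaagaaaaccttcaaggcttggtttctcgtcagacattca
Angpt1 A_52_P160328: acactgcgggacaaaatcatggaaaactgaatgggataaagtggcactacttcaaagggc
A_52_P574140 read 154, 135, 454 and 515 in WT and 522, 324, 318, 431 and 159 in hNAG-1. A_52_P160328 read 194, 148, 486 and 479 in WT and 472, 488, 291, 372 and 281 in hNAG-1. In both probes WT 1 and WT 2 were low and WT 3 and WT 4 were as high as the highest hNAG-1 mice, so WT spanned 3.80-fold and 3.29-fold. The log2 fold changes were 0.30 ± 0.49 (SE) and 0.38 ± 0.39 (SE), with unadjusted limma p of 0.553 and 0.362, and within slide 3 they were -0.99 and -0.21. Without WT 2 they were -0.02 and 0.06, without WT 1 0.04 and 0.19, and without WT 4 0.62 and 0.63.

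Angpt2, which endothelium makes and which can oppose ANGPT1 at TIE2, had the smallest spread among hNAG-1 mice of the 17 probes, with an SD of 0.23 on the log2 scale. It read 530, 577, 688 and 509 in WT and 588, 527, 761, 739 and 589 in hNAG-1. Of the hNAG-1 mice, numbers 3 and 4 lay just above the WT range. The log2 fold change was 0.15 ± 0.17 (SE), with a 95% interval from -0.25 to 0.55 and an unadjusted limma p of 0.399, and it was 0.01 within slide 3. Leaving out 1 mouse moved it between 0.08 (without hNAG-1 3) and 0.24 (without WT 3).

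Taking the brightest probe of each gene, the log2 fold change was positive for 10 of 10 genes, from 0.07 for Cdh5 to 0.48 for Tie1, with a median of 0.25. Within slide 3 it was above 0 for 3 of them, at 0.33 for Tie1 and, close to 0, at 0.06 for Eng and 0.01 for Angpt2. Without WT 2 it was positive for 8 of 10, with a median of 0.20, and without hNAG-1 3 for 9 of 10, with a median of 0.15. Without hNAG-1 2 it was positive for 10 of 10, with a median of 0.20. Scaling moved the level of all probes together. The median of all probes was 0.20 with arrays scaled to their median and -0.16 with no scaling, and the median of the 21 probes lay 0.31 above that of all probes in either case, as with the 75th percentile, since these scalings shift all probes of an array alike. It lay 0.17 above with normexp background correction and 0.29 below (a difference of -0.29) with slide as a block.

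The 10 genes were next compared with each other over the 9 mice, both genotypes together, on the log2 scale and by the brightest probe. Of 45 pairs of genes, 8 had an unadjusted exact permutation p of Pearson's r under 0.05, and 4 stayed under 0.05 after Benjamini-Hochberg adjustment over the 45 (2 for Spearman's rho). Tie1 and Eng had an r of 0.91 (rho 0.92, exact permutation p adjusted to 0.0208 for r and 0.0295 for rho). Cdh5 and Flt1 had an r of 0.89 (rho 0.97, adjusted 0.0434 and 0.00744), but with the dimmer Cdh5 probe, A_51_P309056, the r with the same Flt1 probe was 0.51 (rho 0.13). By the brightest probes, both pairs held within slides, with r of 0.89 for each after the mean of each slide was removed, and without the 2 mice farthest from the median of the first gene, at 0.79 and 0.87.

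The remaining pairs joined 2 receptors and 2 ligands. Kdr and Tek had an r of 0.86 (rho 0.68, exact permutation p adjusted to 0.0434 for r and 0.453 for rho), r was 0.62 without the 2 mice farthest from the median Kdr value, and the second Tek probe, A_52_P234087, had an r of 0.18 (rho 0.20) with Kdr. Vegfa and Angpt1 had an r of 0.87 (rho 0.70, adjusted 0.0434 and 0.453), 0.81 without the 2 farthest mice and 0.92 within slides. Among the 21 pairs of the 7 junction and receptor genes the median r was 0.60, whereas the 9 pairs that include Vegfa had a median of 0.04. Within slides these medians were 0.65 and -0.23, with 3 of the 9 Vegfa pairs above 0. Single pairs of the 21 moved both ways without the 2 mice farthest from the median of the first gene. The r of Kdr fell from 0.78 to -0.24 with Tie1, from 0.75 to 0.13 with Eng and from 0.63 to -0.09 with Flt1. That of Pecam1 rose from 0.59 to 0.74 with Kdr and from 0.74 to 0.85 with Tek. Pecam1 had an r of -0.10 with the brighter Cdh5 probe and 0.69 with the dimmer one, A_51_P309056, and -0.12 with Flt1.

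**Figure D4:**
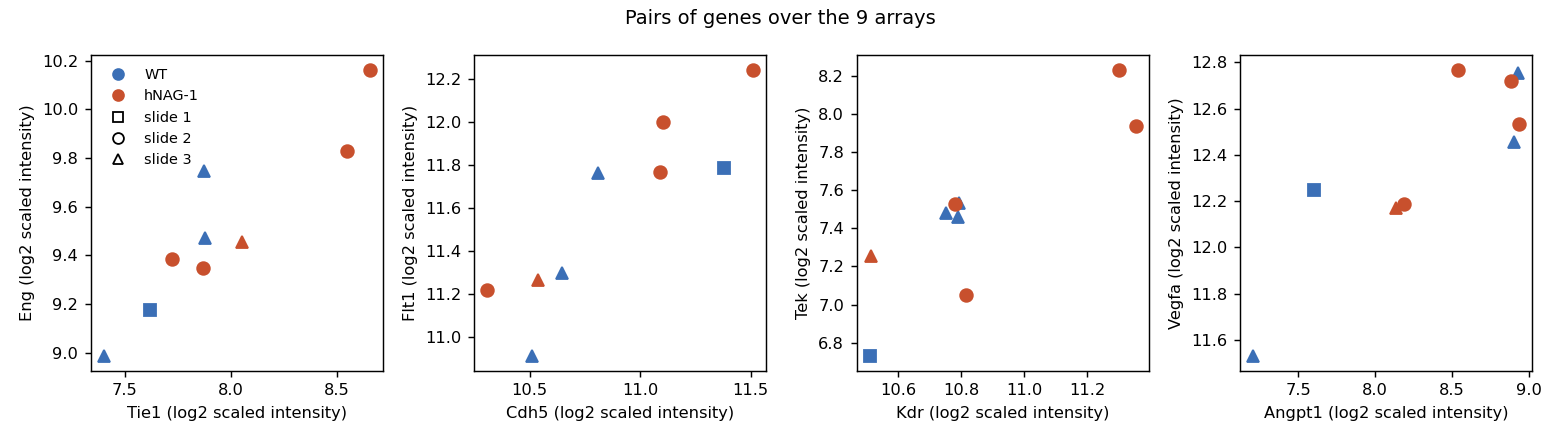
Log2 scaled intensity of 4 pairs of genes over the 9 arrays, by the brightest probe of each gene, with color for the genotype and marker shape for the slide. Each panel rises from left to right (r of 0.91, 0.89, 0.86 and 0.87), and hNAG-1 2 and hNAG-1 3 form the upper right corner for Tie1 with Eng and for Kdr with Tek.

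Probes of one gene followed each other more often than probes of different genes, as a description. The 9 pairs of probes of the same gene, both well above background on all arrays, had a median r of 0.89, and 127 pairs of different genes had 0.32. The exceptions were the pairs of Tek and Cdh5. The dimmer Cdh5 probe, A_51_P309056, had an r of 0.94 with Tie1 and 0.89 with Kdr and with the brighter Tek probe.

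The sequences before the start sites of Tie1 and Eng, the pair with the highest r, are shown from the RefSeq promoter table (GRCm38.p6), as the 250 bases before the start on the gene's strand. Promoters of endothelial genes are known for sites of ETS factors, whose core is GGAA, so GGAA and its reverse complement TTCC are in capitals. The regions are chr4:118489850-118490099 (minus strand) for Tie1 and chr2:32646345-32646594 (plus strand) for Eng.
Tie1 promoter: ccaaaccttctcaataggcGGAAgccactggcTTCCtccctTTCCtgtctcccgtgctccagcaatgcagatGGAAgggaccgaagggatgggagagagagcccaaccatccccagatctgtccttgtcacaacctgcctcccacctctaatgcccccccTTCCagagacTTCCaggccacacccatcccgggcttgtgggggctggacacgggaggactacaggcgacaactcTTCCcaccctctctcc
Eng promoter: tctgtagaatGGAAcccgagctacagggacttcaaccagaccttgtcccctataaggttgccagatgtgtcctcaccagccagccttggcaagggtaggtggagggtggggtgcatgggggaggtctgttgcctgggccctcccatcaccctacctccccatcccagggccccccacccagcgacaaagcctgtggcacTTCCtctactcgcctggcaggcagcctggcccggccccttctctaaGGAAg
Tie1 has 7 such matches on both strands and Eng has 3. Of 32851 promoters of this length in the table, 93.4% hold at least 1 GGAA on either strand, the median is 3, 3.82% hold at least 7 and 54.7% hold at least 3. A match describes letters and does not show a bound site. The table had an entry for 6 of the 10 genes, with 2 start sites for Vegfa, and those of Flt1 and Kdr held 4 matches each, that of Tek 2 and those of Vegfa 2 and 6.

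Beyond the 10 genes, 21 further genes of endothelial identity were drawn from common knowledge of the cell type, and all were well above background on all 9 arrays, so the gland RNA carried the defining markers of endothelium. By the brightest probe, 13 were higher and 8 lower in hNAG-1, with a median log2 fold change of 0.13, and 10 were higher and 11 lower with slide as a block. Without WT 1 the median was -0.01, with 10 higher and 11 lower, and without WT 2 it was 0.19, with 17 higher and 4 lower. Of the 21, 1 had an unadjusted limma p under 0.05, a share no larger than the 5.6% of all probes. This was Sox17, a transcription factor of arterial endothelium, which read 1525, 1100, 1904 and 1510 in WT and 1051, 838, 717, 980 and 1568 in hNAG-1. Its 4 lowest arrays were those of slide 2, and its log2 fold change was -0.58 (unadjusted p 0.0465, adjusted p 0.661), 0.09 within slide 3, and 0.26 with another Sox17 probe well above background on all arrays.
The largest positive difference was that of Nos3, the endothelial nitric oxide synthase, with 233, 306, 361 and 587 in WT and 520, 865, 623, 432 and 449 in hNAG-1. Again hNAG-1 2 and 3 lay above the WT range, and the log2 fold change was 0.67 with an unadjusted limma p of 0.0520, and 0.16 within slide 3.

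Of 8 other genes of the VEGF and angiopoietin systems, 4 were higher and 4 lower, with a median of 0.05 and no unadjusted p under 0.05. Leaving out single arrays moved the median between -0.02 (without WT 1, 3 higher and 5 lower) and 0.10 (without WT 3 or WT 4). The extremes were Vegfd, a ligand of VEGFR3 listed on the array as Figf, at 0.35 (0.06 without WT 1, 0.58 without WT 4), and Flt4, which encodes VEGFR3, at -0.64. Flt4 was well above background on only 2 hNAG-1 arrays, so its value is taken partly against background, and it was -0.37 without hNAG-1 2, -1.02 without hNAG-1 5 and 0.81 within slide 3. Of 13 genes of endothelial BMP and Notch signaling, 9 were higher and 4 lower, with a median of 0.14 and none under 0.05. Of the 13, 11 were well above background on all arrays and 2 on none, so the direction of these 2 is taken at background. The median was 0.03 without WT 3, 0.09 without WT 1 and 0.08 without hNAG-1 3, and 0.09 with slide as a block, where 7 were higher and 6 lower. Notch4, a Notch receptor of endothelium, was the highest at 0.47 (0.47 within slide 3), and Bmpr2, a receptor that works with endoglin, was the lowest at -0.18 (-0.09 without WT 1, -0.31 without WT 2).

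Of 11 other angiogenic ligands, receptors and inhibitors, 5 were higher and 6 lower, with a median of -0.02. The median was -0.10 without WT 2, with 3 higher and 8 lower, and 0.09 without hNAG-1 5, with 6 higher and 5 lower. Edn1, which encodes the vasoconstrictor endothelin-1, had an unadjusted limma p of 0.0291 and an adjusted p of 0.661. It read 374, 246, 249 and 335 in WT and 361, 449, 731, 341 and 771 in hNAG-1. Numbers 2, 3 and 5 of the hNAG-1 mice exceeded the WT range. The log2 fold change was 0.76 ± 0.29 (SE), and 0.60 without hNAG-1 5, the highest mouse. Within slide 3 it was 1.5, a value that this 1 hNAG-1 mouse sets. The lowest of this list was Fgf2, the dim probe given above, whose difference of -0.84 is taken against readings at background in hNAG-1 2, 3 and 4.

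Mural cells wrap the endothelium and lymphatic vessels share many of its genes, so both were looked at by their markers. Of 8 markers of pericytes and vascular smooth muscle, 7 were higher and 1 lower, with a median of 0.17, and 2 had an unadjusted limma p under 0.05, where 51.9% of all probes well above background on all 9 arrays were higher and 5.6% of all probes had such a p, while with slide as a block 2 were higher and 6 lower. The median was 0.11 without WT 2 and 0.05 without hNAG-1 3. The lower one was Des, which encodes the muscle filament protein desmin, at -0.72 (unadjusted limma p 0.284), with 93.7, 394, 149 and 665 in WT and 94.9, 96.8, 296, 93.7 and 287 in hNAG-1. Cspg4, the NG2 proteoglycan of pericytes, read 461, 292, 552 and 953 in WT and 973, 1411, 1448, 519 and 1012 in hNAG-1. All hNAG-1 mice but number 4 exceeded the WT range, and the log2 fold change was 0.97 (unadjusted p 0.0351, adjusted p 0.661), 0.92 within slide 3 and 0.96 with a second probe.
Myh11, a myosin heavy chain of smooth muscle that myoepithelium also makes, read 7279, 5598, 6457 and 8422 in WT and 9703, 10691, 9656, 9663 and 8175 in hNAG-1. Only WT 4 and hNAG-1 5 crossed, and the log2 fold change was 0.48 (unadjusted p 0.0151, adjusted p 0.661) and 0.28 within slide 3. The mean log2 value of 5 myoepithelial markers was lowest in WT 2, and their median difference was 0.33, or 0.11 without WT 2, where that of Myh11 was 0.38. The part of myoepithelium in the Myh11 value was not tested.

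All 4 markers of lymphatic endothelium were lower in hNAG-1, with a median of -0.50, where 47.9% of all probes were higher. The smallest of these differences was -0.01, and 3 of the 4 genes were well above background on all 9 arrays. Within slide 3, where 68.8% of all probes were higher, 3 of 4 were lower. The count was also 3 of 4 without WT 2 (median -0.36), without WT 1 or WT 4, and without hNAG-1 3, 4 or 5. Prox1, the transcription factor that sets lymphatic identity, read 226, 303, 239 and 205 in WT and 222, 136, 106, 182 and 116 in hNAG-1. All hNAG-1 mice but number 1 lay below every WT mouse, and the log2 fold change was -0.72 ± 0.25 (SE), with an unadjusted limma p of 0.0161 and an adjusted p of 0.661, and -1.09 within slide 3. The summed intensity of the 4 markers was 900 to 3170 in WT and 747 to 2551 in hNAG-1. The highest mean of the lymphatic markers was in WT 2, which also had the highest lymphocyte markers, and the part of lymph node tissue in these values was not tested.

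**Figure D5:**
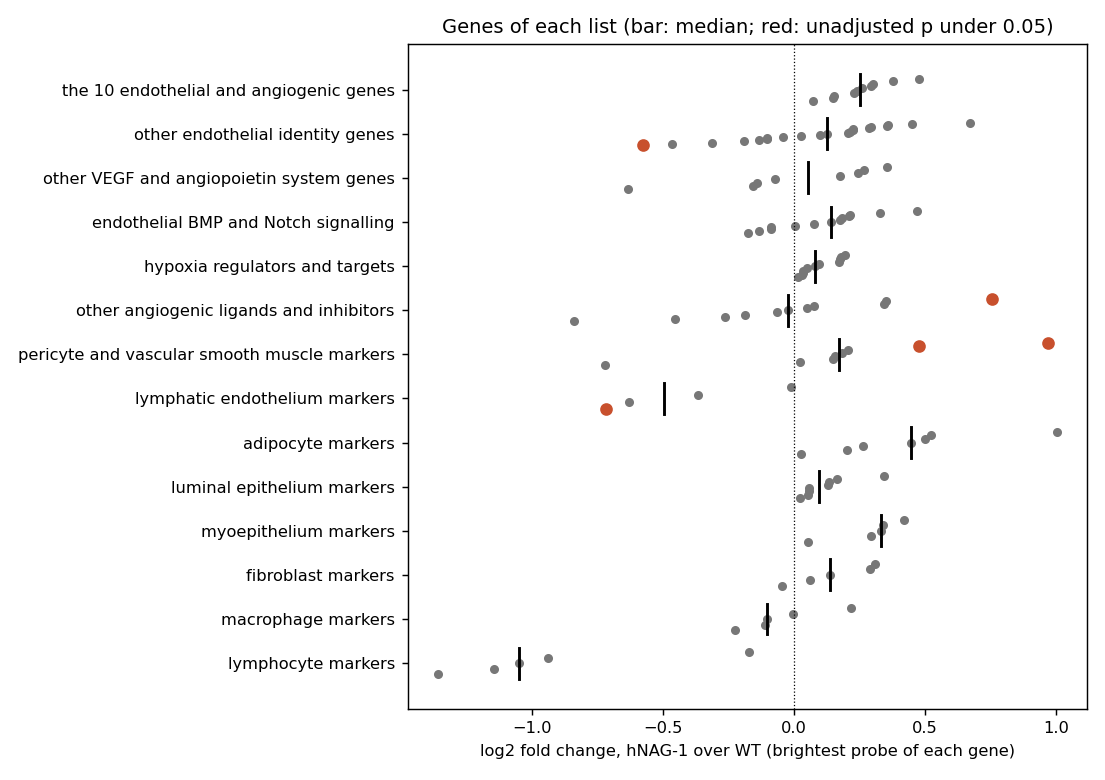
Log2 fold change of hNAG-1 over WT for the brightest probe of each gene (horizontal axis), by list, with a vertical bar for the median of a list and red points for an unadjusted limma p under 0.05. The 10 endothelial and angiogenic genes lie between 0.07 and 0.48, and the 5 lymphocyte markers have the lowest median, at -1.05.

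Markers of the other cells of the gland also differed between genotypes in their medians. The median log2 fold change was 0.45 for 7 adipocyte markers, 0.33 for 5 myoepithelial markers, 0.14 for 5 fibroblast markers, 0.09 for 8 luminal epithelial markers, -0.10 for 5 macrophage markers and -1.05 for 5 lymphocyte markers. Most of these medians moved with 1 WT array. Without WT 1 the adipocyte median was 0.05, the fibroblast median -0.10, the luminal median 0.23 and the macrophage median -0.43. Without WT 2 the myoepithelial median was 0.11, the luminal median -0.04, the macrophage median 0.11 and the lymphocyte median -0.42. With slide as a block the medians were 0.14 for adipocyte, 0.15 for myoepithelial, 0.15 for fibroblast, 0.11 for luminal, -0.44 for macrophage and -0.57 for lymphocyte markers. No gene of these lists had an unadjusted limma p under 0.05. The summed intensities overlapped between genotypes, from 418591 to 785283 in WT and 575905 to 717953 in hNAG-1 for adipocyte markers, and from 17928 to 35770 and 30993 to 39760 for myoepithelial markers. Their part in the values of the 10 genes was not tested.

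The mean log2 value of Pecam1, Cdh5, Tek and Tie1, 4 genes specific to or enriched in endothelium, was 9.17 in both hNAG-1 2 and hNAG-1 3 and between 8.34 and 8.71 in the other 7 arrays. Among 23072 probes of other genes well above background on all arrays, the 5 whose log2 values followed this mean most closely were those of Necap2, AI481105, Lasp1, Trim26 and Npc1, with r from 0.94 to 0.95 over 9 arrays. They were picked as the highest of many, so no p is given, and hNAG-1 2 and 3 stand apart in the mean they follow.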

How the data were processed

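An array was hybridized for each of 9 dams (4 WT, 5 hNAG-1) with RNA of mammary gland number 4 taken on L2. The authors deposited the scanner output as intensity per feature after background subtraction, written by Agilent Feature Extraction version 9.5.3.1, with no scaling between arrays. The deposited series table held the same intensities, with a largest difference of 0. The methods of the study name an ANOVA and no normalization.

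All later steps were done here. Control features (1639 of 45018) were left out, the spots of a probe were averaged, each array was scaled to the 75th percentile of its remaining features, and log2 was taken, so that a fold change is a difference of mean log2 values. Genotypes were compared over all 41174 probes with limma (version 3.58.1, R 4.3.3; lmFit and eBayes, two-sided, 7 residual degrees of freedom, no covariates), with Benjamini-Hochberg adjustment over all probes. Exact permutation tests used all splits into 4 and 5, for which the smallest two-sided p is 0.00794. Correlations were tested over all pairings in Python version 3.11.15. The scripts were tested on simulated data. Depth does not apply to arrays, and their number limits the precision. On single arrays, the lowest scaled intensity well above background was 14.4 to 31.7. Slide and array number come from the labels and file headers.

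The genes and lists were chosen with earlier results of these data known. Lists were counted by the probe of each gene with the highest mean log2 value. Named were all probes of the 10 genes, genes of other lists with an unadjusted p under 0.05 or no overlap, the largest rise and fall of each list that is not a cell type marker list, and the 5 probes most like the endothelial mean. Probe positions are from the scanner files and use mm7, and what the annotation places there was not looked up here. Sequences are printed for a few probes only, and 1 marker list is not reported here. Promoters come from a RefSeq table of GRCm38.p6. Alternatives changed the signal (normexp with an offset of 50, a floor of 20, no features with outlier flags, no dim probes, the series table), the scaling (quantiles, the median, none) and the fit (the methods' test, robust eBayes with a trend, weighted arrays, slides as fixed or random blocks, the third slide by itself, replicate numbers as blocks, and 1 mouse fewer at a time). Leaving out single arrays for the other lists was added after the values were seen.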

Additional observations from a re-analysis of the deposited data

Results flagged for a closer look

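In 42 groups, formed by 21 probes and 2 genotypes, a mouse was set against the others of its genotype by Dixon's ratio, which chance exceeds in about 1 in 20 groups, and 4 groups exceeded it. With Kdr A_51_P316553, WT 1 read 1458 and the other WT mice 1725 to 1774. With Tek A_51_P130374, WT 1 read 106 and the other WT mice 176 to 185. WT 1 was the only array of slide 1 and had the lowest adipocyte and macrophage markers, and their part in these values was not tested.

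The remaining pair of flags were from probes at background on most arrays. With Pecam1 A_52_P349070, WT 2 read 11.5 and the other WT mice 4.44 to 4.71, none of them well above background. With Flt1 A_52_P650151, hNAG-1 4 read 55.6 and the other hNAG-1 mice 3.80 to 5.29, while the Flt1 probes well above background on all arrays were not high in that mouse.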

How the results depend on the processing

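No probe of the 10 genes had an adjusted p under 0.05 under any alternative. Of 21 probes with limma, 0 had an unadjusted p under 0.05, and the count was 2 with normexp, quantile normalization, median scaling, slide 3 alone and the replicate block, 3 with array weights, 1 with slide as a fixed block, and 0 to 2 with 1 mouse left out. Over all probes the count was 2307, and it was 1038 with normexp, 3686 with median scaling, 6272 with array weights, 3723 on slide 3 alone, 5447 with the replicate block, and 1163 (without hNAG-1 2) to 5924 (without hNAG-1 5) with 1 mouse left out (1509 without hNAG-1 3). The median log2 fold change of the 21 probes, 0.29, was -0.10 with slide as a fixed block and on slide 3 alone, and 0.15 (without WT 2) to 0.37 with 1 mouse left out. The causes were not tested.

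With slide as a block and on slide 3 alone, 13 probes changed sign, to -0.30 (Pecam1 A_51_P400868), -0.12 (Cdh5 A_52_P248604), -0.26 (Kdr A_51_P316553), -0.10, 0.97, -0.059 and -0.40 (Flt1 A_52_P520859, A_52_P405145, A_51_P398723 and A_52_P307922), -0.24 (Tek A_51_P130374), -0.077, -0.15 and -0.29 (Vegfa A_51_P482552, A_52_P249424 and A_52_P638895), and -0.99 and -0.21 (Angpt1 A_52_P574140 and A_52_P160328). Array weights turned Pecam1 A_52_P349070 to 0.071, Vegfa A_51_P482552 to -0.0038, Angpt1 A_52_P574140 to -0.15 and A_52_P160328 to -0.070. Pecam1 A_52_P349070 was 0.10 with normexp and 0.036 with median scaling, and all values of this probe are differences between readings at background, not folds. No scaling turned Cdh5 A_52_P248604 to -0.074 and Flt1 A_52_P520859 to -0.018. With 1 mouse left out, 5 probes changed sign at least once, with ranges of -0.31 to 0.15 (Pecam1 A_52_P349070), -0.077 to 0.25 (Cdh5 A_52_P248604), -0.077 to 0.29 (Flt1 A_52_P520859), -0.010 to 0.40 (Vegfa A_51_P482552) and -0.018 to 0.62 (Angpt1 A_52_P574140).

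Replicate numbers did not pair the arrays, since the deviations of same-numbered mice correlated at 0.33, -0.23, -0.16 and -0.35, and with the number as a block no probe changed sign. The filter on dim probes left 18 of the 21 probes. With 4 against 5 mice the 95% intervals of the 17 probes well above background all begin below 0 and end between 0.55 and 1.47.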

Other observations

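Transcripts that respond to low oxygen, which also drives Vegfa, were read from 11 genes of the HIF system and its targets. By the brightest probe, 11 of 11 were higher in hNAG-1, by 0.02 to 0.19 on the log2 scale, with a median of 0.08, where 51.9% of all probes well above background on all 9 arrays were higher. None had an unadjusted limma p under 0.05, and with slide as a block 6 were higher and 5 lower. The direction rested on WT 2, without which 3 were higher and 8 lower, with a median of -0.04. Bnip3, a mitochondrial protein, had the largest difference, at 0.19 (0.05 without hNAG-1 4, 0.09 without WT 2 and 0.37 without hNAG-1 3), and Pdk1, a kinase that restrains pyruvate dehydrogenase, the smallest, at 0.02 (-0.05 without WT 3, 0.16 without WT 1). The mean log2 value of the list lay 0.45 below its mean over the arrays in WT 2, the mouse with the lowest Vegfa, and differed from that mean by -0.09 to 0.19 in the other mice. The part of cell mixture in these values was not tested.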
